A study of Mus musculus with 6 samples.

Results

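The genes described here are the matrix metalloproteases (Mmp), the ADAMTS proteases, the ADAMTS-like proteins (Adamtsl) and the tissue inhibitors of metalloproteases (Timp). They were chosen by gene symbol. Of 22180 genes measured with a symbol of their own, 49 were members: 22 Mmp, 18 Adamts, 5 Adamtsl and 4 Timp genes. Adamts2 and Mmp15 had no probe set listed with their symbol and are not analysed here.

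RNA of 6 cultures of immortal mouse melanocytes, the pigment cells that arise from the neural crest, was hybridised to 1-colour Affymetrix arrays. The Sox10 LacZ/+ line has a LacZ insertion in 1 copy of Sox10, which encodes a transcription factor of the neural crest. It was derived from Ink4a-Arf null mice of 3 days of age and was measured on 3 arrays. The control was the syngeneic line melan-Ink4a-Arf-1, which the labels also call melan-a, for which the labels list no Sox10 mutation (called wild type here), also on 3 arrays. By the labels, both lines derive from Ink4a-Arf null mice (genotype Cdkn2a tm1RDp/tm1RDp in the control), come from mice backcrossed to C57BL/6J, and grew in medium with 200 nM of the phorbol ester 12-O-tetradecanoylphorbol 13-acetate and 200 pM of cholera toxin. The comparison asks how these genes differ when melanocytes have 1 intact copy of Sox10. Each genotype is 1 cell line, so genotype and line cannot be told apart. The titles number the replicates without saying whether they are separate cultures, so p-values may rest on technical spread alone.

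Values are log2 signals made by the authors with RMA, so a difference of 1 is 2-fold. The array medians lay between 5.72 and 5.78, and a signal is called dim below 5.20, the 40th percentile over all probe sets. Differences are Sox10 LacZ/+ minus wild type, from limma fitted on all genes. The threshold for a pass was an adjusted p (Benjamini-Hochberg) below 0.05. Sox10 itself differed by −0.18 (adjusted p 0.213). The probe set of Cdkn2a, the gene that encodes Ink4a and Arf, was not dim, at 7.16 ± 0.12 in the wild type and 7.07 ± 0.08 in the Sox10 LacZ/+ line (mean ± SD, n = 3 each); whether it lies in the deleted part was not determined, so it does not check that label. Melanocyte markers were bright in both lines, with 0 of 9 dim. Wild-type replicate 2 stood apart: it lay 2-fold or more from the average of its fellow arrays for 261 genes, against 22 and 54 genes in wild-type replicates 1 and 3 and at most 2 for a Sox10 LacZ/+ array. Xist was at 11.06 in the Sox10 LacZ/+ line and 4.81 in the wild type, and the Y-linked genes Eif2s3y, Kdm5d and Uty differed by −4.86, −4.18 and −4.92, so a difference in sex between the source animals cannot be told apart from genotype either. In a bulk culture, fewer cells that express a gene and less RNA per cell cannot be told apart.

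Matrix metalloproteases are zinc enzymes, secreted or bound to the cell surface, that are made as inactive precursors and cut collagens, laminins and other matrix proteins. ADAMTS proteases are secreted, and several of them cut large proteoglycans such as versican and aggrecan or trim procollagens. ADAMTS-like proteins share their ancillary domains but have no protease domain. TIMPs bind the active site of these enzymes and block them. Melanocytes use such enzymes when they migrate through dermal matrix, and Adamts20 is the gene mutated in belted mice, which lack pigment cells in a band around the trunk.

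Promoters are shown for members that moved and for members of a cluster of metalloprotease genes on chromosome 9. The sequences were taken from RefSeq (build GRCm38.p6), which held 34 of the 49 members and 10 of the 15 that passed. Adamts4, Adamts6, Mmp16, Mmp17 and Mmp19 had no entry. The start is the listed one. It was the outer bound of the gene for 23 of the 34 members. It lay inside the gene for 11, Adamts9, Adamts20, Adamtsl3 and Adamtsl5 among them, so other starts of these genes were not searched. The start of Adamts20 lay farthest inside, at 27724 bases. Mmp7, Mmp12 and Mmp23 had 2 listed starts and were counted if either matched. In the 250 bases before the start, both strands were searched for 5 motifs, and overlaps between motifs were allowed. TGANTCA is a loose form of the site of AP-1, the factor class activated by phorbol esters. The other motifs were AGGAAG (an ETS site), ACAANG (a short form of the SOX site), GGGCGG (the GC box) and TATAAA (the TATA box). The letters that match any of these 5 motifs are in capitals below. The first set holds the largest fall and the largest rise with an entry, Timp1 (chrX:20869916-20870165, plus strand) and Adamts9 (chr6:92943535-92943784, minus strand), and a pair of related genes that moved in opposite directions, Adamtsl3 (chr7:82335444-82335693, plus strand) and Adamtsl5 (chr10:80348449-80348698, minus strand). All are written 5′ to 3′ on the strand of the gene.
Timp1: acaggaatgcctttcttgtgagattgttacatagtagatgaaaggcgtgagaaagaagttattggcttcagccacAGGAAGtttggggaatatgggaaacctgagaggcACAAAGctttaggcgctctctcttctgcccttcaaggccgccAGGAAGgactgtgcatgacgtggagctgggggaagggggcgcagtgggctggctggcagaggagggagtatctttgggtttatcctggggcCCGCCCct
Adamts9: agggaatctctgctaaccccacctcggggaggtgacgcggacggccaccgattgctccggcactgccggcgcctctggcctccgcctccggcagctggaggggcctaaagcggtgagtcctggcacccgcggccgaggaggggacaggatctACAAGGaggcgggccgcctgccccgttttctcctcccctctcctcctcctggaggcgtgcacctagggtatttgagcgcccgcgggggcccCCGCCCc
Adamtsl3: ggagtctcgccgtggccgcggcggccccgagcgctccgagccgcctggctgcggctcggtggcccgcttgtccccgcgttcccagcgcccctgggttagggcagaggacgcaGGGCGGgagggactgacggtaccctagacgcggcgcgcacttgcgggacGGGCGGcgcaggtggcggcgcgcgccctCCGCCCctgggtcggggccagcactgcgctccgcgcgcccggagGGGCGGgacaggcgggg
Adamtsl5: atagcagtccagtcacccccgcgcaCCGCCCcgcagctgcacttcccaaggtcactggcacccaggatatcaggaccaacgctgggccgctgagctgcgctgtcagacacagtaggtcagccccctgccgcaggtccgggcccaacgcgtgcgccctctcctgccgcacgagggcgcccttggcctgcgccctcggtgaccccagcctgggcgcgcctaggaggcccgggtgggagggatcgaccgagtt

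The second set holds the 100 bases before the start of 4 cluster genes, all on the plus strand: Mmp13 (chr9:7272414-7272513), Mmp3 (chr9:7445722-7445821), Mmp1a (chr9:7464041-7464140) and Mmp10 (chr9:7502242-7502341). Each shows an AP-1 match followed by a TATA box.
Mmp13: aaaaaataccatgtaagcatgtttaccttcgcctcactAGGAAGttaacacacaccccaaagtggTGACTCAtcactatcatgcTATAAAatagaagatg
Mmp3: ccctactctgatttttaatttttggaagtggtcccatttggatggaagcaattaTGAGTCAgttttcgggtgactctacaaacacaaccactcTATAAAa
Mmp1a: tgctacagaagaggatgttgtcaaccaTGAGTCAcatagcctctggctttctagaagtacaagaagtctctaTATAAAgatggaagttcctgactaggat
Mmp10: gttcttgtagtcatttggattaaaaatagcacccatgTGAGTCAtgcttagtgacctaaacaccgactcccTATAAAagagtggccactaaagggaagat

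An AP-1 match lay in the windows of 8 of the 10 cluster genes and in 0 of the 24 other members with an entry. The motif occurs in 6.75% of all 32851 promoter windows of this length. The matches began 35 bases before the start in Mmp13, 46 in Mmp3, 73 in Mmp1a and 63 in Mmp10. Mmp8 and Mmp27 were the cluster genes without a match. The match in Mmp20 read TGAATCA, and the others read TGAGTCA or TGACTCA. A stricter form with only C or G in the middle was not counted over all windows. A TATA box lay in 7 of the 10 cluster genes and in 3 of the other 24 members, against 12.4% of all windows, and a GC box in 0 of 10 and 18 of 24, against 32.7%. The 14 members outside the cluster that did not pass also had no AP-1 match, and 9 of them had a GC box. Among the 10 members with an entry that passed the test, the GC box was found in 3 of the 4 that rose and all 6 that fell, the SOX letters in 1 of 4 (Adamts9) and 1 of 6 (Timp1), against 36.3% of all windows, and the ETS letters in 2 of 4 (Adamts12 and Mmp14) and 1 of 6 (Timp1), against 29.5%. These matches describe the sequences and say nothing of binding.

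Of the 49 members, 7 rose and 8 fell in the Sox10 LacZ/+ line. The largest rise was that of Mmp16, a membrane-anchored metalloprotease gene, at 16.0-fold, and the largest fall that of the inhibitor gene Timp1, at 11.0-fold. Rises were also found for Adamts9, Adamts6, Adamts4, Adamtsl3, Adamts12 and Mmp14, and falls for Adamtsl5, Mmp19, Adamts14, Adamtsl4, Adamts20, Mmp17 and Mmp28. The 15 that passed are 30.6% of the members, where 13.4% of all genes passed; 14.3% rose, against 7.46% of all genes, and 16.3% fell, against 5.92%. At least 2-fold were 9 members (18.4%, against 3.53% of all genes): 5 higher, against 1.94% of all genes, and 4 lower, against 1.59%, with Adamtsl3 just inside (1.17) and Adamtsl4 just outside (−0.99). The median difference of the members was −0.01, as over all genes it was 0.001. All 7 rises passed under each of the 14 alternative settings, and of the falls so did 4: Timp1, Adamtsl5, Adamts14 and Mmp17. Without wild-type replicate 2, 7 members were higher and 11 lower; with any Sox10 LacZ/+ array left out, 4 were lower, and 5 without wild-type replicate 1.

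**Figure D1:**
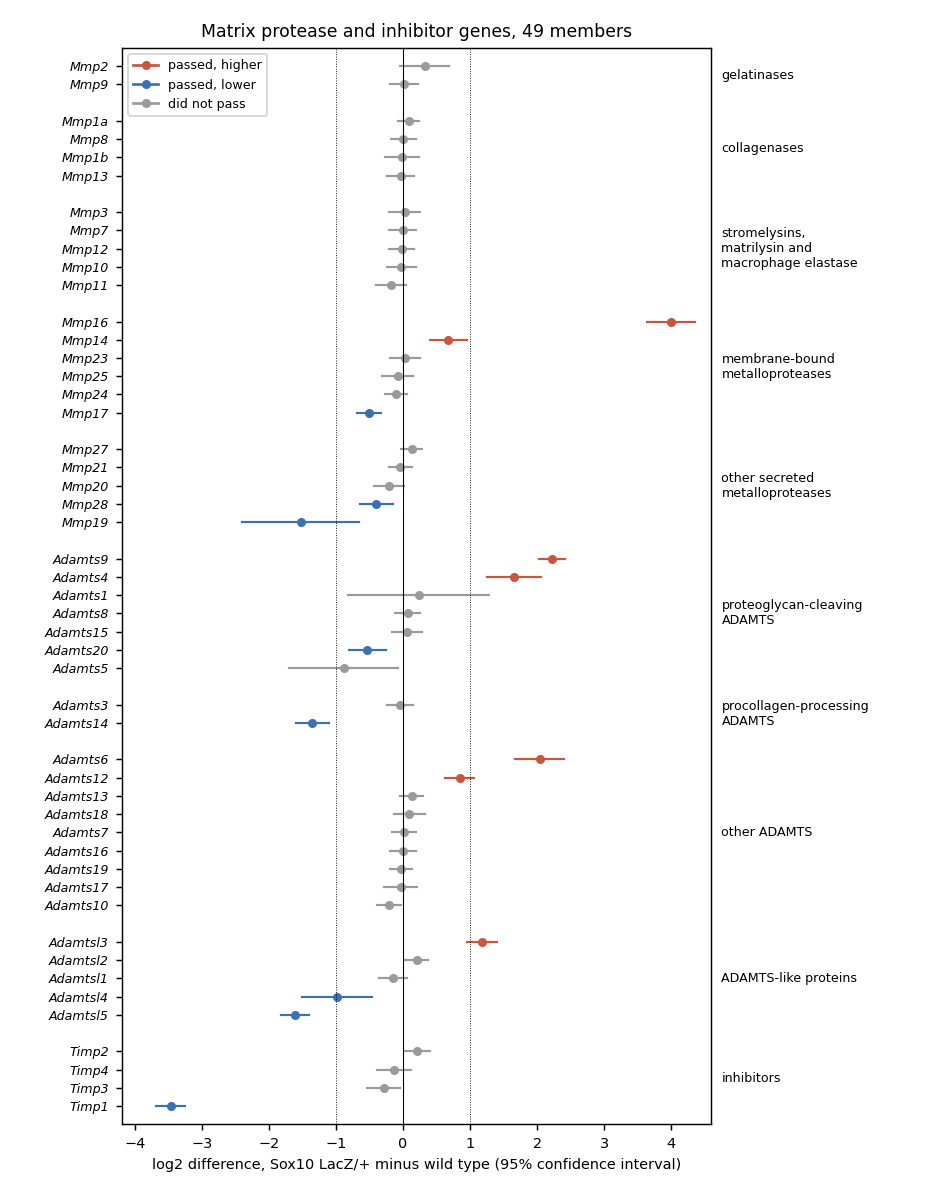
Log2 difference (Sox10 LacZ/+ minus wild type, points) with its 95% confidence interval (bars) for the 49 members, grouped by kind of protein; red and blue mark members that passed higher and lower, grey those that did not pass, and dotted lines mark 2-fold. Mmp16 (4.001) and Timp1 (−3.46) lie farthest from 0, and the collagenase genes lie close to it.

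**Figure D2:**
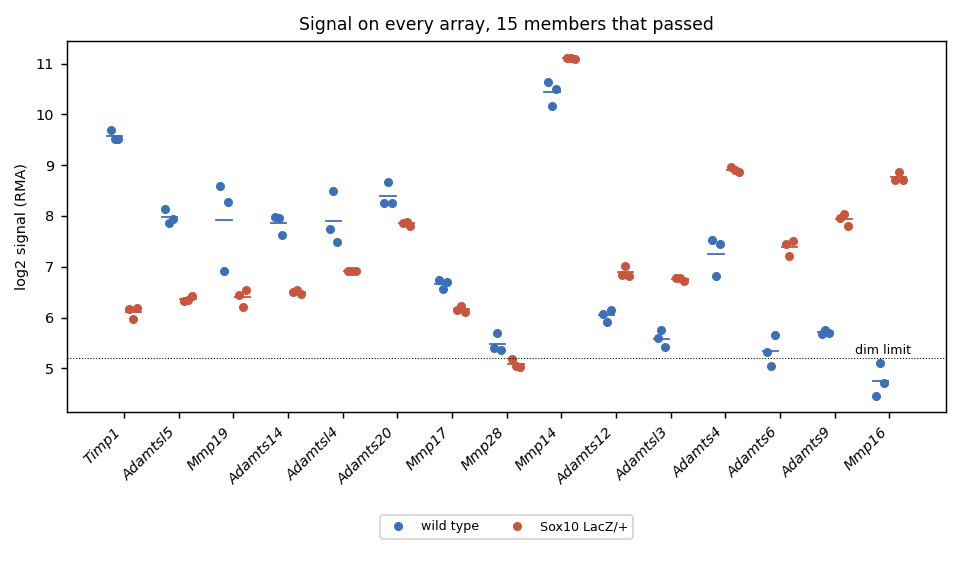
Log2 signal on each of the 6 arrays for the 15 members that passed, from the largest fall to the largest rise; lines are means of 3 arrays and the dotted line is the dim limit of 5.20. The arrays of the lines do not overlap for any of these genes, and the Sox10 LacZ/+ arrays of Adamtsl4 all lie at 6.91.

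The membrane-bound metalloproteases act at the cell surface, and of their 6 genes 2 rose, 1 fell and 3 did not pass. Mmp16 encodes a transmembrane enzyme that can activate pro-MMP2 (Entrez 17389; chromosome 4, 17853072 to 18117479). Its signal was 4.47, 5.11 and 4.71 on the wild-type arrays and 8.71, 8.87 and 8.71 on the Sox10 LacZ/+ arrays. All wild-type arrays were dim and all Sox10 LacZ/+ arrays well above the limit, and the fold therefore hinges on the background of the array. The difference was 4.001 (SE 0.15, adjusted p 1.43e-06). Mmp14 encodes the main surface activator of pro-MMP2 and also cuts fibrillar collagen (chromosome 14, 54431598 to 54442456). It had 10.64, 10.17 and 10.49 in the wild type and 11.12, 11.11 and 11.10 in the Sox10 LacZ/+ line, where every array lay above every wild-type array (difference 0.67, SE 0.12, adjusted p 0.00752). Mmp17, whose product is held by a lipid anchor, had 6.73, 6.57 and 6.71 against 6.14, 6.24 and 6.11, a fall of 1.42-fold (−0.51, SE 0.08, adjusted p 0.00423). Mmp23, Mmp24 and Mmp25 differed by 0.03, −0.11 and −0.08, with confidence intervals that together ran from −0.31 to 0.26. The lines therefore differed in opposite directions for enzymes of 1 class.

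The gelatinase gene Mmp2, whose product is a substrate of MMP14, did not pass. It had 11.91, 11.29 and 11.86 in the wild type and 12.03, 11.98 and 12.02 in the Sox10 LacZ/+ line, a difference of 0.32 (95% confidence interval −0.05 to 0.68, adjusted p 0.267). The lines' arrays did not overlap, but wild-type replicate 2 made much of the gap, and without it the difference was 0.12 (adjusted p 0.297). Mmp9, the other gelatinase gene, was dim on average in both lines, at 5.10 ± 0.14 and 5.12 ± 0.07 (mean ± SD, n = 3 each).

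The collagenase, stromelysin and related genes on chromosome 9 gave no difference that passed. The cluster holds 10 members within 427.1 kb (7272514 to 7699585): Mmp13, Mmp12, Mmp1b, Mmp3, Mmp1a, Mmp10, Mmp8, Mmp27, Mmp20 and Mmp7. Over all 6 arrays their signals lay between 3.12 and 5.71, and 9 of the 10 were dim in both lines; the exception was Mmp10, at 5.62 ± 0.08 in the wild type and 5.60 ± 0.13 in the Sox10 LacZ/+ line. Differences ran from −0.21 (Mmp20) to 0.13 (Mmp27), and their confidence intervals from −0.44 to 0.28. By limma 0 passed and 0 had an unadjusted p below 0.05. The cells of both lines grew with phorbol ester, and 8 of these promoters carry the AP-1 letters shown above. At these signals an array does not tell low expression from none, so a difference in a low level was not detectable. Mmp1a and Mmp1b are close copies, and cross-hybridisation between them was not tested.

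**Figure D3:**
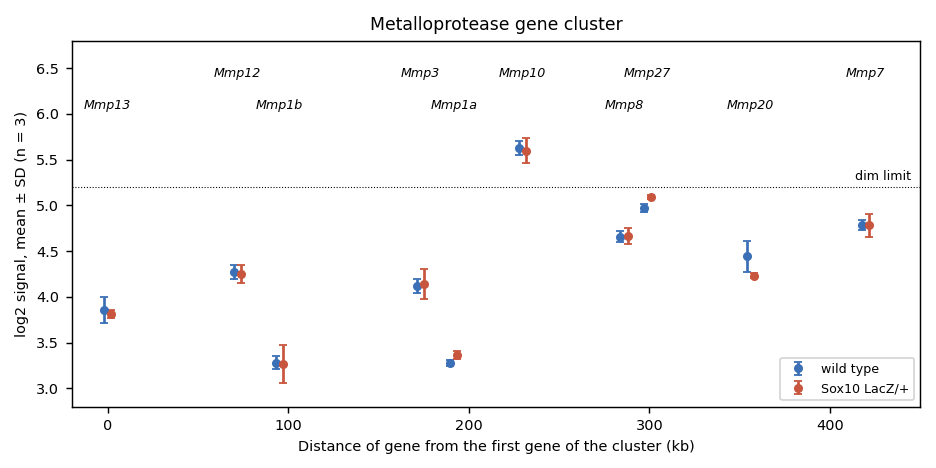
Mean log2 signal (± SD, n = 3) of the 10 metalloprotease genes of the chromosome 9 cluster in each line, against the distance of the gene from the first gene of the cluster in kb. The means of the lines lie at most 0.21 apart for every gene, and 9 genes lie under the dim limit of 5.20.

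Among the other secreted metalloproteases 2 of 5 fell. Mmp19, which cuts basement membrane proteins (chromosome 10, 128790910 to 128800827), had 8.58, 6.92 and 8.28 in the wild type and 6.44, 6.21 and 6.55 in the Sox10 LacZ/+ line. Wild-type replicate 2 differed by −1.51 from its fellow arrays and lay close to the Sox10 LacZ/+ arrays. The difference was −1.53 (SE 0.38, adjusted p 0.0332), and −2.03 without that array (adjusted p 5.85e-05); the call was lost on leaving out any other array (highest adjusted p 0.121). Mmp28, known as epilysin and expressed in epidermis, had 5.40, 5.71 and 5.36 against 5.18, 5.05 and 5.03, near the dim limit. Its difference of −0.40 (adjusted p 0.0442) ranged in adjusted p from 0.028 to 0.155 over the alternatives and passed in 7 of 14. Mmp21 did not pass (−0.04, adjusted p 0.82), nor did Mmp20 and Mmp27, which lie in the chromosome 9 cluster. Mmp11, which was grouped with the stromelysin genes and lies outside that cluster, did not pass either (−0.18, adjusted p 0.317).

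Of the 7 proteoglycan-cleaving ADAMTS genes, 2 rose, 1 fell and 4 did not pass. Adamts9, which cuts versican and acts with Adamts20 in mouse pigment cell development, had 5.68, 5.76 and 5.70 in the wild type and 7.96, 8.03 and 7.81 in the Sox10 LacZ/+ line. The lines were far apart against a spread of at most 0.12 (SD), and the rise was 4.66-fold (2.22, SE 0.08, adjusted p 1.22e-06). Adamts9 lies on chromosome 6 (92772699 to 92944450). Of 710 genes there that were not dim on average, 33.7% were higher, against 4.94% to 12.9% on each other listed chromosome. Their median difference was 0.24, against 0.002 on the other chromosomes. The part of this shift in the rise was not tested. Adamts4, an aggrecanase gene (chromosome 1, 171250129 to 171262267), had 7.52, 6.81 and 7.44 against 8.96, 8.91 and 8.87, a rise of 3.15-fold (1.66, SE 0.17, adjusted p 0.000479). Adamts20, the belted gene, was lower, at 8.25, 8.67 and 8.26 in the wild type and 7.87, 7.88 and 7.81 in the Sox10 LacZ/+ line. Its arrays did not overlap between lines (−0.54, SE 0.12, adjusted p 0.0216), but the call was lost with any Sox10 LacZ/+ array left out (adjusted p up to 0.087). Adamts9 and Adamts20 thus differed in opposite directions. Adamts8 and Adamts15, neighbours on chromosome 9, differed by 0.07 and 0.06 and did not pass.

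Adamts1 and Adamts5 lie 55.0 kb apart on chromosome 16, and both depended on wild-type replicate 2. Adamts1, which cuts versican and aggrecan, had 12.10, 10.15 and 12.01 in the wild type and 11.71, 11.64 and 11.61 in the Sox10 LacZ/+ line. Replicate 2 differed by −1.90 from the mean of replicates 1 and 3, which were both above every Sox10 LacZ/+ array. The difference was 0.23 (95% confidence interval −0.83 to 1.29, adjusted p 0.826) with all arrays and −0.40 (adjusted p 0.00835) without replicate 2. Adamts5, the main aggrecanase gene of mouse cartilage, had 10.43, 8.94 and 10.37 against 9.07, 8.99 and 9.02. Its difference was −0.89 (adjusted p 0.163) with all arrays and −1.38 (adjusted p 1.74e-05) without replicate 2. Wild-type replicate 2 was at least 0.5 away from the other wild-type arrays in 7 members: lower in Adamts1, Mmp19, Adamts5, Adamts4 and Mmp2, and higher in Mmp16 and Adamtsl4. At least 2-fold away were 3 members, where 1.18% of all genes were. No Sox10 LacZ/+ array was 0.5 away from the others of its line in any member, the largest gap being 0.35.

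**Figure D4:**
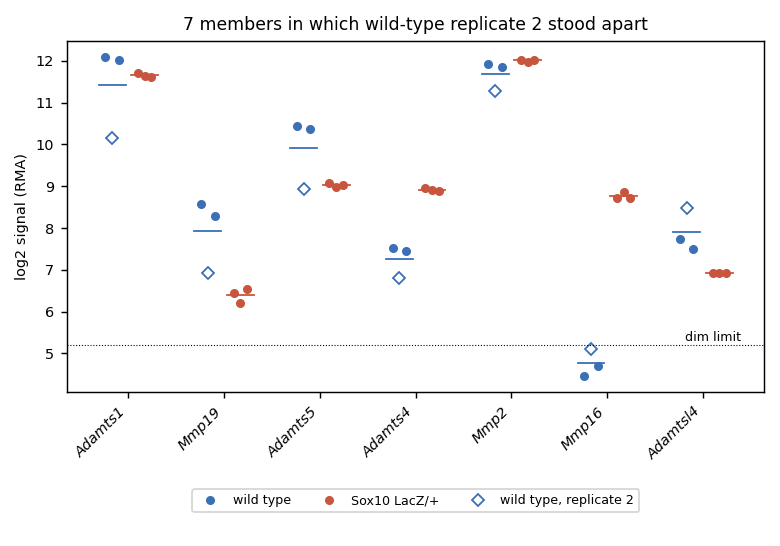
Log2 signal on each array for the 7 members in which wild-type replicate 2 (open diamonds) lay at least 0.5 from the average of replicates 1 and 3; lines are means of 3 arrays and the dotted line is the dim limit. In Adamts1, replicate 2 (10.15) lies below the Sox10 LacZ/+ arrays while the other wild-type arrays (12.10 and 12.01) lie above them.

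Of the remaining ADAMTS genes, Adamts6 and Adamts12 rose and Adamts14 fell. Adamts6, a relative of the fibrillin-binding Adamts10 (chromosome 13, 104286518 to 104496695), had 5.33, 5.05 and 5.67 in the wild type and 7.45, 7.21 and 7.50 in the Sox10 LacZ/+ line, a rise of 4.11-fold (2.04, SE 0.16, adjusted p 8.29e-05). Its wild-type signals lay near the dim limit, and replicate 2 was under it. Adamts10 itself differed by −0.21 (adjusted p 0.124). Adamts12, whose product cuts cartilage oligomeric matrix protein, had 6.07, 5.92 and 6.15 against 6.84, 7.01 and 6.82 (0.84, SE 0.09, adjusted p 0.000622); Adamts7, its closest relative, had 6.40 ± 0.10 and 6.41 ± 0.02 and differed by 0.01 (95% confidence interval −0.17 to 0.19). Adamts14, which removes the amino-terminal propeptide of procollagens, had 7.98, 7.96 and 7.63 against 6.50, 6.54 and 6.47, a fall of 2.56-fold (−1.35, SE 0.10, adjusted p 8.49e-05). Averaged with a second, dimmer probe set, the difference of Adamts14 was −0.78 and still passed. Adamts3, another procollagen-processing gene, was dim in both lines and differed by −0.05. Adamts13, which cuts von Willebrand factor, and Adamts16, Adamts17, Adamts18 and Adamts19 differed by at most 0.13 and did not pass.

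Among the 5 ADAMTS-like genes, 1 rose, 2 fell and 2 did not pass. Adamtsl5 (chromosome 10, 80339793 to 80349030) had 8.15, 7.86 and 7.94 in the wild type and 6.33, 6.34 and 6.42 in the Sox10 LacZ/+ line, a fall of 3.07-fold (−1.62, SE 0.09, adjusted p 1.33e-05). Adamtsl4, whose product binds fibrillin microfibrils, had 7.73, 8.49 and 7.49 against 6.91, 6.91 and 6.91. Wild-type replicate 2 was the high array here; the difference was −0.99 (SE 0.22, adjusted p 0.0237) with it and −0.70 (adjusted p 0.00173) without it, and the call was lost without wild-type replicate 1 or any Sox10 LacZ/+ array (adjusted p up to 0.0823). Adamtsl3 (chromosome 7, 82335399 to 82614450) had 5.60, 5.75 and 5.41 against 6.78, 6.79 and 6.71, a rise of 2.26-fold (1.17, SE 0.10, adjusted p 0.000127). Adamtsl2 differed by 0.20 (adjusted p 0.13) and Adamtsl1, which was dim in both lines, by −0.16 (adjusted p 0.344).

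Of the 4 inhibitor genes, Timp1 fell and the others did not pass. Timp1, which inhibits most secreted metalloproteases but is a poor inhibitor of several membrane-bound ones, had 9.70, 9.52 and 9.51 in the wild type and 6.18, 5.97 and 6.19 in the Sox10 LacZ/+ line. The lines were separated by more than 3 log2 units at an SD of at most 0.12 (−3.46, SE 0.09, adjusted p 2.33e-07). Timp1 lies on the X chromosome (20870166 to 20874737) within the bounds of the synapsin gene Syn1, which differed by −0.004 (adjusted p 0.985). Of 440 X-linked genes that were not dim on average, 11.8% were lower and 10.0% higher, with a median of −0.03. Among such genes of each other listed chromosome, 4.37% to 11.7% were lower and 4.94% to 33.7% higher. Timp2, which takes part in the activation of pro-MMP2 by MMP14, had 11.43, 11.21 and 11.39 in the wild type and 11.57, 11.52 and 11.56 in the Sox10 LacZ/+ line (0.21, 95% confidence interval 0.02 to 0.40, adjusted p 0.159). Timp3, which is bound to matrix and also inhibits ADAMTS proteases, had 10.88, 10.52 and 10.89 against 10.51, 10.45 and 10.45. Its difference was −0.29 (adjusted p 0.138) with all arrays and −0.41 (adjusted p 0.00527) without wild-type replicate 2. Timp4 differed by −0.14 (adjusted p 0.496). Timp3 and Timp4 lie within the bounds of Syn3 and Syn2, which differed by 0.06 and 0.11 (adjusted p 0.703 and 0.68).

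Genes that control or receive these enzymes were also measured. Of 24 genes for activation and surface control, 2 rose and 4 fell (median −0.06). Plau, the urokinase gene that turns plasminogen into an activator of metalloproteases, rose by 3.42 (SE 0.14), and Lrp1, a receptor that clears proteases and their complexes, by 2.37 (SE 0.12). Pcolce2, an enhancer of procollagen processing, fell by 5.06 and Papln, a relative of the ADAMTS-like genes, fell by 1.68. The ADAM family includes membrane proteases that shed surface proteins, though not every listed gene encodes one. Of 12 ADAM genes 3 rose and 1 fell. Adam19 (2.88, SE 0.25), Adam23 (0.63) and Adam9 (0.32) were higher and Adam10 (−0.33) was lower. Substrates moved in both directions, with 8 of 33 higher and 7 lower (median −0.01), led by decorin (Dcn, 5.92), Thbs2 (−4.04), tenascin C (Tnc, 2.46) and perlecan (Hspg2, −2.04). Among 9 AP-1 factor genes Fosl2 rose (0.47, adjusted p 0.00526), Atf3 fell (−0.88, adjusted p 0.0269) and 7 did not pass; Jun had 10.09, 9.11 and 10.18 in the wild type and 10.44, 10.42 and 10.41 in the Sox10 LacZ/+ line. Among the wild-type arrays, Jun, Atf3 and Batf3 were lowest on replicate 2. Atf3 had 7.78 there against 8.55 and 8.59 on replicates 1 and 3, and Batf3 had 5.24 against 5.44 and 5.26. Fos, Fosb, Fosl2, Junb, Jund and Batf were highest on replicate 2. Jund had 9.05 there against 8.62 and 8.60, and Fosl2 had 8.58 against 8.55 and 8.43. Some of these gaps were small, and a part of AP-1 in the values of replicate 2 was not tested. No list holds a member, and against 7.46% higher and 5.92% lower over all genes they are given as description.

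Markers of melanocytes and of other cell types were compared between the lines as well. Over all genes, 7.46% were higher and 5.92% lower. Of 12 fibroblast markers 4 rose and 0 fell: Dcn, Pdgfrb (4.08), Fbln1 (3.18) and Col1a2 (1.24). The log2 of the list's summed signal was 9.63 to 9.73 in the wild type and 12.41 to 12.46 in the Sox10 LacZ/+ line. In that line Dcn, Fbln1 and Pdgfrb had the highest means of the list, at 10.80, 10.88 and 10.35. Col1a1 (−0.20), Col3a1 (0.10), Pdgfra (0.15), Thy1 (−0.14) and Dpt (−0.005) did not pass. Fap, Lum and Twist2 did not pass either and were dim in both lines. Dcn, Col1a1, Col1a2, Col3a1 and Vwf are also in the substrate list. Among 10 markers of endothelium and smooth muscle 4 rose and 0 fell, Acta2 (5.34), Tagln (0.94), Cnn1 (0.44) and Vwf (0.38), with a summed signal of 9.24 to 9.34 against 12.56 to 12.64 and with Kdr and Tek dim. Acta2 alone had a mean of 7.11 in the wild type and 12.45 in the Sox10 LacZ/+ line, close to the summed signal there, while Pecam1, Cdh5, Des and Myh11 did not pass (differences of −0.06 to 0.23). Of 9 leukocyte markers Cd68 (1.32) and Fcer1g (0.36) rose, with a summed signal of 8.83 to 8.95 against 9.34 to 9.44. Cd68 had the highest mean of the list in both lines, at 7.14 in the wild type and 8.46 in the Sox10 LacZ/+ line. Lyz2 (−0.42), Csf1r (−0.04) and Tyrobp (−0.01) did not pass, and Ptprc, Itgam, Adgre1 and Cd3e were dim. Of 9 keratinocyte markers 0 passed by limma and 1 had an unadjusted p below 0.05 (Sfn −0.06, Cdh1 0.38), with summed signals of 9.12 to 9.47 and 9.27 to 9.43. Of 9 melanocyte markers 4 fell, Tyr (−2.10), Gpr143 (−1.002), Oca2 (−0.88) and Dct (−0.68), and 1 rose, Mitf (0.67). Mlana (−0.29), Tyrp1 (−0.05), Pmel (0.22) and Slc45a2 (0.27) did not pass. The summed signals of the list were 15.08 to 15.29 in the wild type and 15.00 to 15.03 in the Sox10 LacZ/+ line. The part of these markers in the differences of the protease and inhibitor genes was not tested.

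Of the 34 members that did not pass, 15 were dim in both lines (30.6% of members, against 32.7% of all genes). No overlap between the lines' arrays was seen for 25 members (51%), against 31.6% of all genes, and 10 of these 25 did not pass: Timp2, Timp3, Mmp1a, Mmp2, Mmp20, Mmp24, Mmp27, Adamts10, Adamts13 and Adamtsl2. With Adamts1 and Adamts5 set aside, the differences of members that did not pass lay between −0.29 (Timp3) and 0.32 (Mmp2).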

How the data were processed

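Biotin-labelled RNA of 6 samples was measured on 1-colour Affymetrix arrays. The authors deposited RMA signals in log2 units, 1 for each probe set and array, after background correction and normalisation, per the submitters' processing notes. The notes also name Partek, with its role, version and settings not given in the sources used here. An array gives no counts, so the number of arrays limits the precision.

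Among 41345 probe sets there were 23521 with 1 gene symbol, 1814 with several and 16010 not listed with a gene. A gene with several probe sets was represented by the brightest one (mean of 6 arrays), which gave 22180 genes; no dim gene was removed and nothing was rescaled. All 49 members were placed on RefSeq (GRCm38.p6) by Entrez identifier. The test was limma 3.58.1 (R 4.3.3; lmFit, then eBayes; 2-sided, 7.87 total degrees of freedom), tested on simulated data. It had no replicate block, since the labels do not say what a replicate number shares. Over all genes, deviations of arrays sharing a number were nearly uncorrelated (0.007, 0.016 and −0.004). Many of these genes were dim, so the correlations do not settle whether such arrays are independent.

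Members and lists were chosen with earlier results of these data known. Every member could be named; from each list came up to 4 passing genes by size of difference, or else the 2 of highest signal. Mitf, Sox10, Cdkn2a, Pecam1, Cdh5, Des, Myh11, the synapsin genes and the sex-linked genes were added after their values were seen. So were Col1a1, Col3a1, Pdgfra, Thy1, Dpt, Jun and the other AP-1 factor genes that did not pass. Lyz2, Csf1r, Tyrobp, Mlana, Tyrp1, Pmel and Slc45a2 were also added in this way. Alternative settings covered scaling (median centring, quantile normalization), a filter on dim genes, averaging of probe sets, eBayes with trend or robust, array weights, a replicate block, a threshold of 0.01 and leaving out each array.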

Additional observations from a re-analysis of the deposited data

How the results depend on the processing

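The 15 members that passed kept their direction under all 14 alternative fits, and 11 of them (7 higher, 4 lower) also kept their call. The count of higher members was 7 under every setting. The count of lower members was 8, fell to 4 at a threshold of 0.01, and ranged from 4 to 11 with single arrays left out. At that threshold 1588 genes passed in all (888 higher, 700 lower), and with single arrays left out 1768 to 4222 passed (979 to 2308 higher, 779 to 1914 lower). Adamts1 reversed, from 0.23 to −0.14 with array weights (adjusted p 0.817) and to −0.40 without wild-type replicate 2; its adjusted p ranged from 0.00835 to 0.891, and leaving out other single arrays gave up to 0.57. The reason for the values of wild-type replicate 2 was not tested. With the replicate block, for which the labels give no basis, 7 members were higher and 7 lower and 2512 genes passed. Mmp28 was the member that lost its call (−0.40, adjusted p 0.0646). Mmp28 also lost it with median centring (adjusted p 0.0689) and quantile normalization (0.0684). With array weights 10 members were lower, Adamts5 and Timp3 being the additions. Without wild-type replicate 2, the ADAM list had 2 lower instead of 1, the AP-1 list 3 higher instead of 1, the melanocyte list 3 higher instead of 1, the leukocyte list 1 lower instead of 0 and the keratinocyte list 1 higher instead of 0; the cause was not tested. Signals near the dim limit of 5.20 understate differences, which bears on Mmp16, Mmp28 and Adamts6. It also bears on Adamtsl3 and Adamts9, whose wild-type means were 5.59 and 5.71.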

Other observations

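A probe set shared by Mmp24, a membrane-bound metalloprotease gene, and BC029722 entered no comparison because it carries 2 symbols. It had 8.60, 8.35 and 8.55 on the wild-type arrays and 8.07, 8.09 and 8.05 on the Sox10 LacZ/+ arrays, which did not overlap; the probe set of Mmp24 alone differed by −0.11. Mmp11, Adamts8, Mmp7 and Adamts14 each had a second, dimmer probe set. In Adamts14 the second probe set had 5.59 ± 0.13 in the wild type and 5.38 ± 0.07 in the Sox10 LacZ/+ line (mean ± SD, n = 3 each), a difference of −0.21 where the first gave −1.35. The second probe sets of Mmp11, Adamts8 and Mmp7 differed by 0.09, 0.07 and −0.12.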
